A study of Mus musculus with 18 samples.

Results

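The tektins are the proteins of 5 mouse genes, Tekt1 to Tekt5, and the genes were taken by name. No measured value entered that rule, but earlier results of these data were known when the genes were chosen. They are 5 of the 16306 genes with a value in at least 1 of the 18 libraries, and all 5 had a value in every library and passed the filter on low values that left 14664 genes for testing. Each level is an FPKM, a count of fragments scaled to the length of the transcript and the size of the library, summed over the assembled transcripts that share a splice junction and a strand with the gene.

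Tektins are coiled-coil proteins that polymerise into filaments inside the doublet microtubules of cilia and flagella. In spermatogenesis they are built into the axoneme, the microtubule core of the sperm tail, which grows out from the early spermatid. Transcription stops while spermatid nuclei condense, so many messages for tail proteins are made early, stored in ribonucleoprotein particles and translated later.

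The study asked how messages are divided between translated and untranslated pools as male germ cells mature. Wild type adult C57BL/6 mice supplied testes from which 3 cell types were enriched by sedimentation: pachytene spermatocytes (in meiosis), round spermatids (early haploid cells) and elongating spermatids (later haploid cells). The paper estimated purity from cell morphology, and it was lowest for elongating spermatids. Lysates were separated on sucrose gradients into a polysome fraction, which holds messages bound by several ribosomes, and an RNP fraction, the lighter ribonucleoprotein particles. Each of the 6 groups had 3 libraries, prepared with cycloheximide in the buffers, and since cells of several testes were pooled and no source says that the replicates came from separate preparations, p-values measure only the spread between these libraries.

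The levels were deposited with no scaling between libraries. The paper normalised its RNP and polysome libraries with a set of mRNAs at comparable levels in both fractions. It reported similar scale factors from geometric and quantile methods. The scaling by those mRNAs was not applied here. Relative to the median of 7038 genes, the polysome libraries stood 0.30 to 0.62 higher and the RNP libraries 0.22 to 1.08 lower on the log2 scale, which enters every comparison of a polysome with an RNP library. The files hold no counts, so read depth was not used. The 95% bounds that Cufflinks gave for the assembled tektin transcripts lay 1.22 to 26.9% from the estimate, and cover the estimate in 1 library only. The elongating spermatid markers summed to 5999.8 FPKM or more in each elongating library and to 4571 FPKM or less in every other library. The pachytene markers did not separate the cell types, with 3488 to 4473 FPKM in elongating polysomes and 3648 to 4777 FPKM in pachytene polysomes. Both round spermatid libraries numbered 2 stood apart: 10 of the 11 listed Sertoli cell markers were annotated and summed to 2561 FPKM in the polysome library and 1218 FPKM in the RNP library, against 45.3 to 168 FPKM in the other round libraries. The round spermatid markers summed to 155 and 108 FPKM in those libraries, against 439 to 1399 FPKM in the other round libraries. These markers did not separate round from elongating cells, with 1260 to 2209 FPKM in elongating polysomes. The pachytene libraries were not uniform either. Their Sertoli markers summed to 263, 1062 and 1570 FPKM in polysomes, against 326, 1454 and 81.4 FPKM in RNPs. Their elongating spermatid markers summed to 1200, 28.1 and 332 FPKM in polysomes, against 2526, 49.8 and 694 FPKM in RNPs. In bulk libraries such as these, fewer cells of a type and less RNA per cell cannot be told apart.

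Tekt1 was the most abundant tektin in 15 of the 18 libraries and Tekt4 in the other 3, on the FPKM scale, which is per length. Tekt5 was the least abundant in 10 libraries and Tekt2 in 8. Tekt1 ranked between the 87.7th and 99.3rd percentile of tested genes in a library, Tekt4 between 79.7 and 98.7, Tekt3 between 70.2 and 98.2, Tekt2 between 45.0 and 96.9 and Tekt5 between 19.5 and 92.7.

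Tekt1 lies on chromosome 11 (chr11:72158224-72175944, minus strand, mm9) and encodes the tektin found in the doublets of many ciliated cells. In pachytene spermatocytes it was at 271, 173 and 433 FPKM in polysomes, against 161, 49.3 and 48.0 FPKM in RNPs. In round spermatids it was at 301, 61.6 and 265 FPKM in polysomes, against 152, 29.2 and 156 FPKM in RNPs. In elongating spermatids it was at 268, 344 and 316 FPKM in polysomes, against 148, 99.9 and 121 FPKM in RNPs. Polysome and RNP libraries did not overlap in pachytene and in elongating cells, and overlapped in round cells, where both libraries numbered 2 were the lowest of their groups. Of all tested genes, 29.5% lay higher in polysomes with no overlap in pachytene cells, 14.4% in round cells and 36.9% in elongating cells. These rates also stand beside each tektin below.

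Tekt2, on chromosome 4 (chr4:125999365-126002932, minus strand), is needed for sperm motility and male fertility in mice. It was at 38.3, 33.2 and 38.2 FPKM in pachytene polysomes, against 20.8, 5.56 and 5.66 FPKM in pachytene RNPs. Round polysomes held 114, 18.1 and 162 FPKM, against 34.9, 6.57 and 23.96 FPKM in round RNPs. Elongating polysomes held 52.6, 113 and 114 FPKM, against 18.6, 27.8 and 53.1 FPKM in elongating RNPs. The fractions were apart in pachytene cells only, and in elongating cells the highest RNP library lay just above the lowest polysome library. A long noncoding gene on the opposite strand, Gm12945, overlaps Tekt2 by 1639 bases. The libraries came from a stranded kit, and matching was by strand. Many single-exon transcripts carried no strand, 20855 of 28832 in pachytene polysome replicate 1. Whether reads from the opposite strand entered the Tekt2 values was not tested.

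Tekt3, on chromosome 11 (chr11:62875156-62908466, plus strand), is also a flagellar tektin, and mice without it have sperm that swim less well. Its level was 195, 70.3 and 142 FPKM in pachytene polysomes, against 78.3, 17.7 and 18.8 FPKM in pachytene RNPs. In round cells it was 271, 30.3 and 210.0 FPKM in polysomes, against 97.5, 12.8 and 68.6 FPKM in RNPs. In elongating cells it was 223, 245 and 214 FPKM in polysomes, against 62.8, 58.8 and 97.5 FPKM in RNPs. Only in elongating cells did the fractions not overlap.

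Tekt4, on chromosome 17 (chr17:25608535-25613539, plus strand), is required for normal flagellar movement in mouse sperm. Pachytene polysomes held 184, 66.6 and 203 FPKM, against 97.3, 20.0 and 28.9 FPKM in pachytene RNPs. Round polysomes held 329, 42.5 and 242 FPKM, against 162, 18.5 and 109.6 FPKM in round RNPs. Elongating polysomes held 237, 299.5 and 251 FPKM, against 104, 98.7 and 154 FPKM in elongating RNPs. As for Tekt3, the fractions were apart in elongating cells and overlapped in the other cell types.

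Tekt5, on chromosome 16 (chr16:10358041-10395583, minus strand), encodes a tektin abundant in the sperm flagellum. It was at 60.03, 23.0 and 33.6 FPKM in pachytene polysomes, against 28.5, 4.25 and 9.08 FPKM in pachytene RNPs. In round cells it was at 86.9, 2.39 and 65.2 FPKM in polysomes, against 43.8, 2.44 and 20.2 FPKM in RNPs. In elongating cells it was at 104, 125 and 109 FPKM in polysomes, against 45.8, 31.0 and 46.9 FPKM in RNPs. The elongating polysome libraries were the highest 3 of all 18, and the 2 round libraries numbered 2 the lowest.

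**Figure D1:**
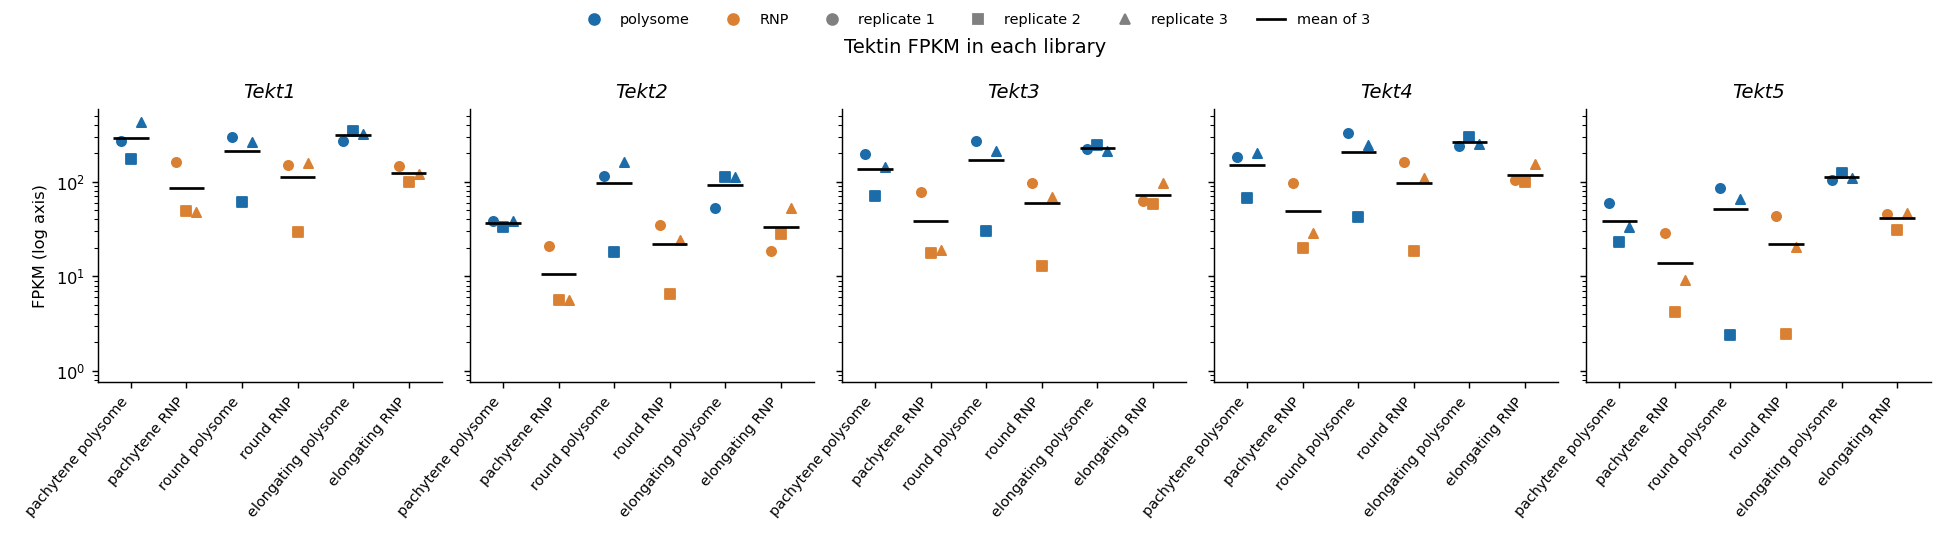
FPKM of each tektin in each library on a log axis, by cell type, with polysome libraries left of RNP libraries; marker shapes are replicate numbers and bars are group means. Elongating polysome libraries lay close together for Tekt3, from 214 to 245 FPKM, but not for Tekt2, from 52.6 to 114 FPKM. The round polysome libraries spread widely for Tekt3, from 30.3 to 271 FPKM.

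Ordered by group mean, elongating polysomes came first for Tekt1 (309 ± 38.4 FPKM), Tekt3 (227 ± 15.8), Tekt4 (263 ± 32.7) and Tekt5 (113 ± 10.7), each with its SD and n = 3. Round polysomes came first for Tekt2, at 98.1 ± 73.3 FPKM (SD, n = 3). Pachytene RNPs came last for all 5 tektins, with means ± SD of 86.1 ± 64.9 FPKM for Tekt1, 10.7 ± 8.79 for Tekt2, 38.3 ± 34.7 for Tekt3, 48.7 ± 42.3 for Tekt4 and 13.9 ± 12.8 for Tekt5 (n = 3 each). Between most neighbours in these orders the libraries overlapped. Of the 25 neighbouring pairs only 2 did not overlap: elongating above pachytene polysomes for Tekt2, and elongating above round polysomes for Tekt5. Of all tested genes, 15.9% and 12.1% lay higher with no overlap in these comparisons. The places moved with the scaling: after median-ratio scaling between libraries 2 of the 6 groups kept their place for Tekt4 and for Tekt5, 3 for Tekt2, and 4 for Tekt1 and for Tekt3.

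The first comparison asked whether tektin FPKM, each relative to its own library, were higher in polysomes than in RNPs. The amount of RNA in each fraction was not used. Averaged over the 3 cell types, Tekt1, Tekt2, Tekt3 and Tekt4 were higher in polysomes than in RNPs on the scale as deposited, and Tekt5 did not pass the threshold. The log2 fold changes of FPKM + 1 were 1.78 for Tekt2 (SE 0.44, limma adjusted p = 0.00793), 1.70 for Tekt3 (SE 0.48, adjusted p = 0.0157), 1.38 for Tekt1 (SE 0.41, adjusted p = 0.0209), 1.35 for Tekt4 (SE 0.49, adjusted p = 0.0449) and 1.33 for Tekt5 (SE 0.61, adjusted p = 0.105). In this comparison 30.6% of the 14664 tested genes were called and the median gene stood 0.76 higher in polysomes. Relative to that median the tektins stood 0.62 (Tekt1), 1.02 (Tekt2), 0.94 (Tekt3), 0.59 (Tekt4) and 0.57 (Tekt5) higher, with 83.9 to 96.0% of tested genes below them. After median-ratio scaling, which brought the median gene to 0.12, the log2 fold changes were 0.44, 0.88, 0.77, 0.41 and 0.44 for Tekt1 to Tekt5. None of them was called by limma under that scaling (adjusted p 0.331 to 0.766) or had an unadjusted p under 0.05, where 1.78% of genes were called. The calls of Tekt1, Tekt2 and Tekt3 on the deposited scale held in all 18 fits that each left out 1 library. Tekt4 was called in 5 of 18 such fits, those without pachytene polysome replicate 2, pachytene RNP replicate 1, round polysome replicate 2, round RNP replicate 1 or round RNP replicate 3 (adjusted p 0.0114 to 0.0834 over all 18). Tekt5 was called only without round polysome replicate 2, with a log2 fold change of 1.83 (limma adjusted p = 0.00883). Without both round libraries numbered 2, all 5 tektins were called, beside 35.3% of tested genes.

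Within single cell types the fold changes pointed the same way and none was called. All 15 pairs of a tektin and a cell type had a positive log2 fold change that exceeded the median of all genes. In pachytene spermatocytes the log2 fold changes, polysome minus RNP, were 1.68 to 2.03 (limma adjusted p 0.105 to 0.298), against a median of 1.01, and 4 tektins, all but Tekt5, had an unadjusted p under 0.05. The call rate there was 6.34%. In round spermatids they were 0.86 to 1.91 (adjusted p 0.274 to 0.713), against a median of 0.65, with 1 unadjusted p under 0.05, that of Tekt2, and a call rate of 0.327%. In elongating spermatids they were 1.16 to 1.66 (adjusted p 0.274 to 0.469), against a median of 0.71, with no unadjusted p under 0.05 and a call rate of 1.6%. The spread that these fits share includes the round libraries numbered 2. When both were left out, all 5 tektins were called in pachytene cells (limma adjusted p 0.0224 to 0.0495), beside 17.6% of tested genes. When only the elongating libraries entered the fit, Tekt1, Tekt3, Tekt4 and Tekt5 were called (adjusted p 0.0183 to 0.034), beside 15.9% of tested genes. By libraries alone, polysomes lay above RNPs with no overlap for Tekt1 and Tekt2 in pachytene cells, where 29.5% of tested genes did so, for no tektin in round cells, where 14.4% did, and for Tekt1, Tekt3, Tekt4 and Tekt5 in elongating cells, where 36.9% did.

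**Figure D2:**
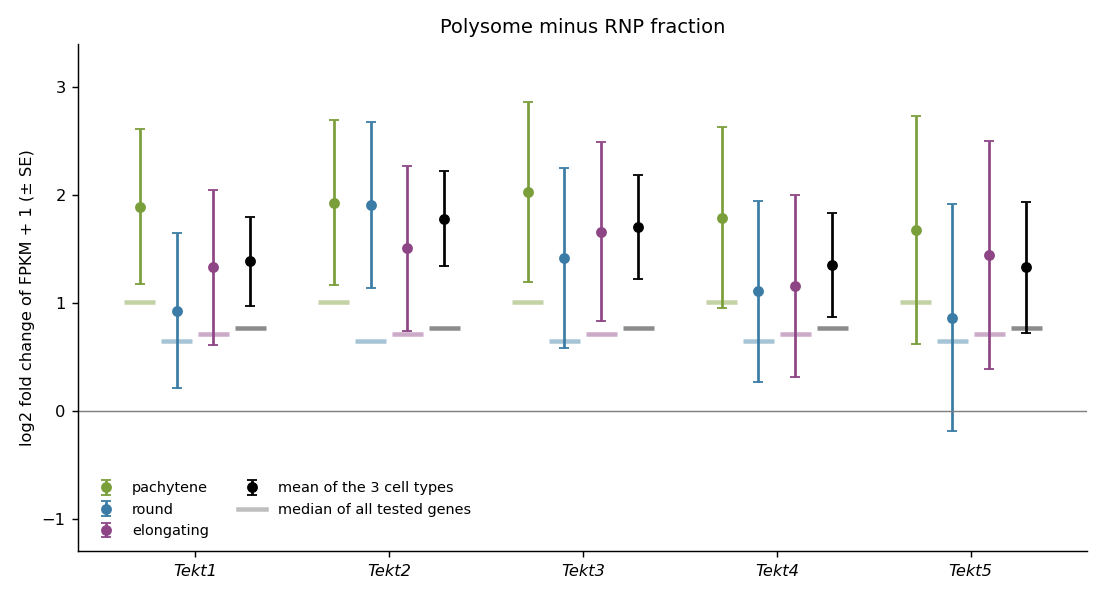
Log2 fold change of FPKM + 1, polysome minus RNP, for each tektin in each cell type and averaged over the 3, with error bars of 1 standard error from limma and short bars at the median of all 14664 tested genes. All 15 points of single cell types lie above the median of all genes there, the nearest being Tekt5 in round spermatids at 0.86 against 0.65.

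The difference between fractions was itself compared between cell types. No tektin was called in any of the 3 interaction tests, and every limma adjusted p was 1, with no unadjusted p under 0.05. The interaction log2 values ran from -0.96 to -0.02 for round minus pachytene cells, where 0.0136% of tested genes were called, from -0.40 to 0.58 for elongating minus round cells, where 0.00682% were, and from -0.63 to -0.23 for elongating minus pachytene cells, where 0.0273% were.

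The second comparison asked how tektin levels changed as the cells matured. No tektin was called by limma in any stage comparison when all 18 libraries shared the fit on the deposited scale, and Tekt5 had the largest fold change of the 5 between elongating and pachytene cells in both fractions. In the RNP fraction, elongating minus pachytene, the log2 fold changes were 0.74 for Tekt1, 1.67 for Tekt2, 1.23 for Tekt3, 1.57 for Tekt4 and 1.84 for Tekt5 (adjusted p 0.298 to 0.655), against a median gene at 0 and a call rate of 0.689%. Only Tekt2 had an unadjusted p under 0.05. In polysomes the same comparison gave 0.17, 1.25, 0.86, 0.94 and 1.61 for Tekt1 to Tekt5 (adjusted p 0.328 to 0.911), against a median gene at -0.24 and a call rate of 5.91%, with no unadjusted p under 0.05. The elongating libraries lay above the pachytene libraries with no overlap for Tekt4 and Tekt5 in RNPs, where 11.8% of tested genes did so, and for Tekt2, Tekt3, Tekt4 and Tekt5 in polysomes, where 15.9% did. When only the elongating and pachytene polysome libraries entered the fit, Tekt5 was called (log2 fold change 1.61, limma adjusted p = 0.0411), beside 15.2% of tested genes.

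The same stage comparison was repeated with median-ratio scaling and without both round libraries numbered 2, a setting chosen after seeing the data. Tekt2 and Tekt5 were then called higher in elongating cells in both fractions. In RNPs their log2 fold changes were 1.70 and 1.87 (limma adjusted p = 0.0304 for Tekt2 and 0.0312 for Tekt5), with 10.5% of tested genes called. In polysomes they were 1.49 and 1.85 (adjusted p = 0.046 for Tekt2 and 0.0288 for Tekt5), with 13.3% called. Neither change alone gave a call: the tektins had limma adjusted p of 0.231 to 0.769 with the scaling alone and of 0.0614 to 0.845 without the libraries alone. The Sertoli markers summed to 25.9 to 48.4 FPKM in the elongating libraries, with Sox9, Gata4 and Fshr at 0, and to 81.4 to 1570 FPKM in the pachytene libraries, and their part in the stage differences was not tested.

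**Figure D3:**
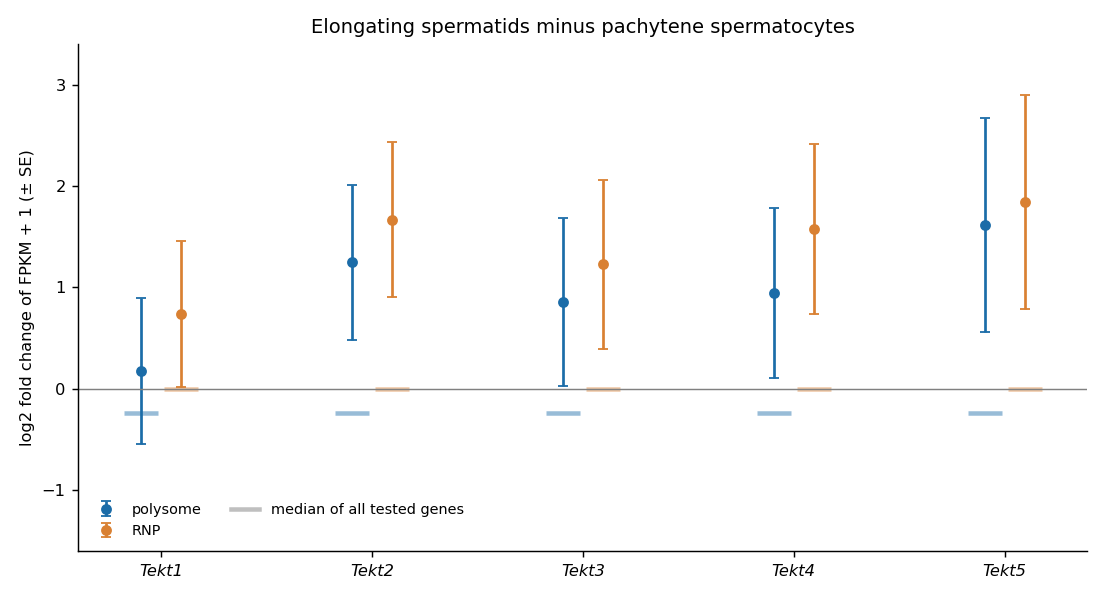
Log2 fold change of FPKM + 1, elongating minus pachytene, for each tektin in polysomes and in RNPs, with error bars of 1 standard error from limma and short bars at the median of all tested genes. Tekt5 has the highest point in each fraction, 1.61 in polysomes and 1.84 in RNPs, and Tekt1 the lowest, 0.17 and 0.74.

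No tektin was called in the steps between neighbouring stages. Elongating minus round gave log2 fold changes of 0.32 to 2.07 in polysomes (limma adjusted p 0.351 to 0.844), the highest being Tekt5, where 0.573% of tested genes were called. In RNPs it gave 0.45 to 1.48 (adjusted p 0.69 to 0.829), where 0.0818% were called. Round minus pachytene gave -0.68 to 0.92 in polysomes (adjusted p 0.909 to 1), where 0.157% were called, with Tekt1, Tekt3 and Tekt5 below 0. In RNPs it gave 0.29 to 0.94 with every adjusted p at 1, and 0% of genes were called. In none of these 4 comparisons did a tektin have an unadjusted p under 0.05.

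Shares of the summed tektin FPKM do not depend on the scaling between libraries. Tekt5 made up 10.9 to 11.8% of the sum in elongating polysomes and 9.81 to 12.1% in elongating RNPs. It made up 1.54 to 7.88% in round polysomes, 3.51 to 8.94% in round RNPs, 3.96 to 8.03% in pachytene polysomes and 4.39 to 8.22% in pachytene RNPs. The 6 elongating libraries, at 9.81 to 12.1%, thus did not overlap the 12 others, at 1.54 to 8.94%. The same held when fragments rather than FPKM were summed, with 9.58 to 12.6% in the elongating libraries and 1.07 to 8.34% in the others. When only transcripts with an annotated intron chain were counted, the elongating libraries (7.05 to 12.5%) overlapped the round libraries (up to 8.07%) but not the pachytene libraries (0 to 3.76%). The lowest Tekt5 share, 1.54%, was in round polysome replicate 2, where Tekt5 was at 2.39 FPKM. The FPKM shares of Tekt1, Tekt2, Tekt3 and Tekt4 each overlapped between the elongating and the other libraries. How often other genes would separate these libraries in this way was not counted.

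The other shares moved less cleanly. Tekt1 held 25.7 to 39.0% of the sum in the elongating libraries and 36.2 to 51.0% in the pachytene libraries, which overlapped. Tekt2, 4.89 to 11.3% in elongating libraries against 4.50 to 9.07% in pachytene libraries, reached its highest share in round polysomes, at 10.4 to 17.2%. The ratio of Tekt5 to Tekt1 was 0.310 to 0.389 in elongating libraries, against 0.0777 to 0.222 in pachytene libraries. Between fractions, Tekt4 over Tekt3 was lower in polysomes than in RNPs, at 1.06 to 1.22 in elongating polysomes against 1.58 to 1.68 in elongating RNPs, and at 1.15 to 1.40 in round polysomes against 1.44 to 1.66 in round RNPs. In pachytene cells this ratio overlapped, at 0.942 to 1.43 in polysomes against 1.13 to 1.54 in RNPs.

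**Figure D4:**
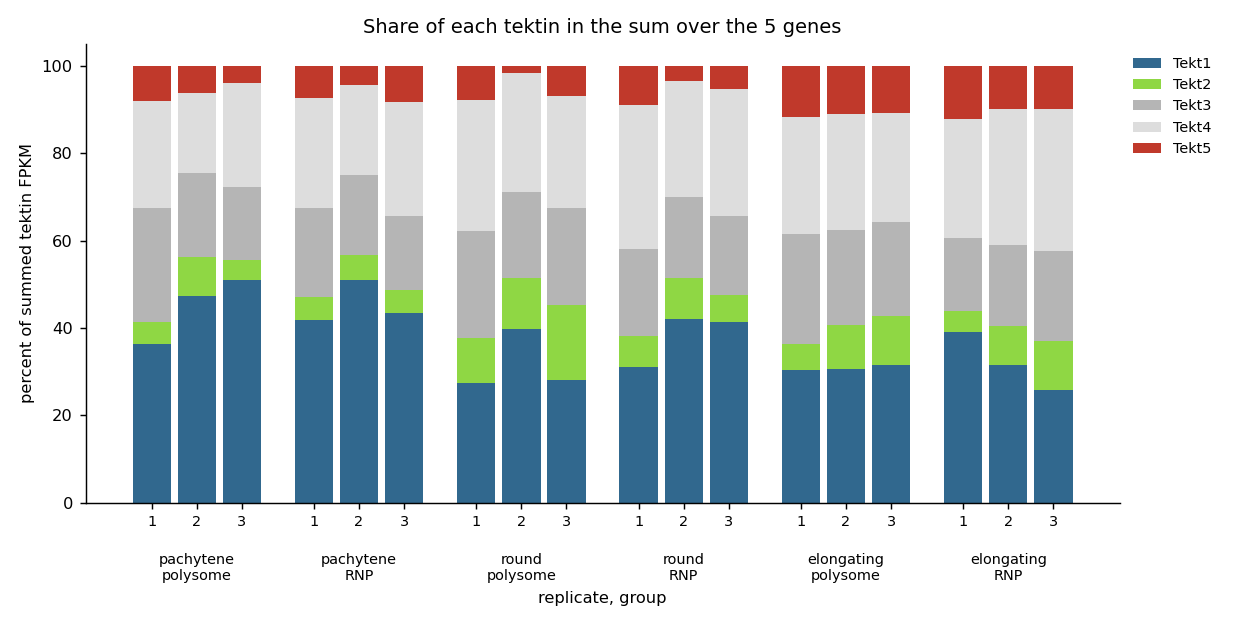
Share of each tektin, in percent, of the summed FPKM of the 5 tektins in each of the 18 libraries, as stacked bars by group. The Tekt5 band is 9.81 to 12.1% in the 6 elongating libraries and 8.94% or less in the other 12.

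Both round libraries numbered 2 held less tektin RNA than the other round libraries. Relative to the mean of replicates 1 and 3 on the log2 scale, the 5 tektins stood at -4.49 (Tekt5) to -2.18 (Tekt1) in the polysome library, with a median of 0.30 over all tested genes, and 1.56 to 11.4% of tested genes stood lower. In the RNP library they stood at -3.16 (Tekt5) to -1.98 (Tekt2), with a median of 0.11, and 4.79 to 12.3% of genes stood lower. The Sertoli markers given above were the highest of the round libraries in these 2 libraries, and their part in the low tektin levels was not tested. Samples of the same number deviated together in round cells, polysomes and RNPs (correlations of 0.20 to 0.66 over genes). Within a number, polysomes were higher than RNPs in 14 of 15 tektin pairs, and the exception was Tekt5 in number 2, at 2.39 FPKM in polysomes and 2.44 FPKM in RNPs. The median tested gene also stood 0.65 higher in round polysomes on the log2 scale as deposited. The share of all genes with polysomes higher within a number was not counted, so the tektin count cannot be set against it.

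The assembled transcripts differed between genes and stages. Tekt3 and Tekt4 were assembled as 1 transcript with the annotated introns in every library. Tekt5 was assembled in 2 main forms, the annotated chain of 7 exons, in 14 of 18 libraries, and an unannotated form of 5 exons, in 13. The unannotated form began in an exon inside intron 3 and joined exon 4, so that it lacked the first 3 exons, which hold 722 of the 1671 coding bases, or 43.2%.

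The internal exon was found in 6 of 6 pachytene, 5 of 6 round and 2 of 6 elongating libraries. The annotated chain held 62.3 to 100% of the Tekt5 FPKM in the 6 elongating libraries, against 0 to 60.0% in the 6 pachytene libraries, with no overlap. By library this share was 42.3, 18.5 and 60.0% in pachytene polysomes, against 44.0, 0 and 0% in pachytene RNPs. In round cells it was 100, 0 and 53.8% in polysomes, against 61.2, 0 and 61.0% in RNPs. In elongating cells it was 100, 100 and 62.3% in polysomes, against 78.5, 100 and 100% in RNPs. In each round group the library numbered 2 had no annotated chain, and its total was under 3 FPKM. Pachytene RNP replicates 2 and 3, also without the annotated chain, had totals of 4.25 and 9.08 FPKM. The part of the Tekt5 level in whether the annotated chain was assembled was not tested. The internal first exon was 680 to 1057 bases in the pachytene libraries, 92 to 651 bases in the round libraries and 48 to 100 bases in the elongating libraries.

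**Figure D5:**
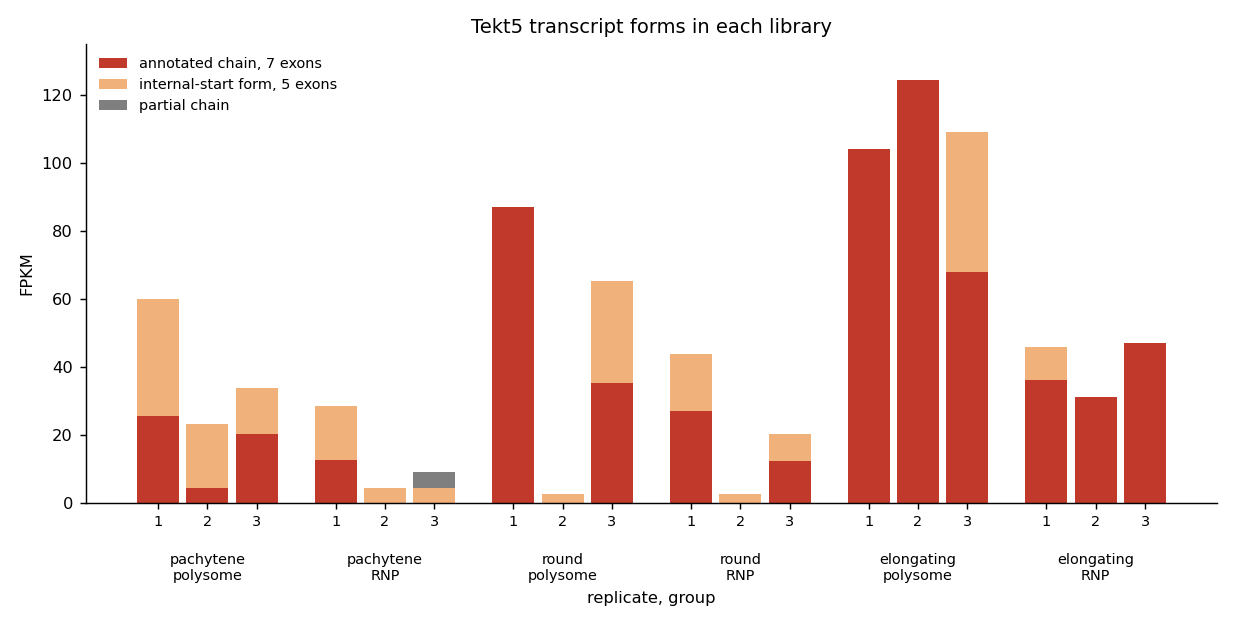
Tekt5 FPKM in each library, split into the annotated chain, the internal-start form and a partial chain in pachytene RNP replicate 3, as stacked bars by group. The internal-start form is present in all 6 pachytene libraries, at 4.25 to 34.7 FPKM, and in 2 of the 6 elongating libraries, at 9.84 and 41.1 FPKM.

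Tekt2 differed at its 5′ end. A leader intron that ends at the same acceptor was assembled in 6 of 9 polysome libraries (1 of 3 pachytene, 2 of 3 round and 3 of 3 elongating), against 2 of 9 RNP libraries (1, 0 and 1 of 3). It was entered from 4 donors, of which 3 are annotated, and 1 is not and was found in pachytene polysome replicate 1 and round polysome replicates 1 and 3. The donors, from the outermost to the innermost, and the acceptor are shown because the choice of first exon is where the Tekt2 transcripts differed: they lie at chr4:126002874-126002903, chr4:126002812-126002841, chr4:126002564-126002593 (the unannotated one), chr4:126002526-126002555 and chr4:126002433-126002462 (mm9, minus strand), with GT or AG in capitals.
outermost donor: gtgaggggaaaccagGTgaggggatgcggc
second donor: agttttcaggcccggGTattgactgaaacc
unannotated donor: acagcctgagaagggGTgattgttggaagt
innermost donor: aaactggattaagggGTatgttccctgcca
shared acceptor: tccttgcatctgcAGgctccagggctttgt

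Tekt2 was at 18.1 to 162 FPKM in polysome libraries and at 5.56 to 53.1 FPKM in RNP libraries, and the part of the level in whether the leader intron was assembled was not tested. Tekt1 had 1 transcript per library with an annotated chain of 8 exons, and its first exon varied most in length. That exon was 160 to 1178 bases in polysome libraries (median 832), against 33 to 1042 bases in RNP libraries (median 88) and 81 bases in the annotation, while its other exons summed to 1314 to 1449 bases. Because FPKM divides by the assembled length, the Tekt1 values above depend on it. Summed as fragments, Tekt1 held 33.3 to 38.6% of the tektins in the elongating libraries and 40.7 to 48.5% in the pachytene libraries, which then did not overlap.

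The promoters were searched for the core of the X-box, the motif bound by RFX factors, which drive many genes of cilia and flagella. RefSeq promoter windows of 300 bases around the start (GRCm38.p6) were available for all 5 genes, in 8 windows. The letters GTTGCC, on either strand, were in 12.5% of all 32851 windows and in 4 of the 8 tektin windows. These were 1 of 2 for Tekt1, 2 of 3 for Tekt2 and 1 of 1 for Tekt4. By gene, 14.1% of all genes and 3 of the 5 tektins had it in at least 1 window. GTAAACA, a forkhead motif, was in 3.65% of windows (4.05% of genes) and in Tekt3 only. TGACGTCA, the full cAMP response element, was in 1.79% of windows (2.03% of genes) and in no tektin. The letters GGTTGC, chosen after the windows were read and overlapping GTTGCC in GGTTGCC, were in 12.3% of windows and in 6 of the 8 tektin windows. By gene, 13.9% of all genes and all 5 tektins had them in at least 1 window. Because these letters were picked from the same windows, the tektin count cannot be set against the 13.9%. The 2 Tekt2 windows that hold GGTTGC overlap and share their matches, so the window counts take the same sites more than once. One match per gene is shown with the 6 bases in capitals (GRCm38.p6, minus strand), at chr11:72361881-72361910 for Tekt1, chr4:126325701-126325730 for Tekt2, chr11:63061618-63061647 for Tekt3, chr17:25471587-25471616 for Tekt4 and chr16:10395674-10395703 for Tekt5.
Tekt1: ttgcgtccgtccGGTTGCcatagagaccgc
Tekt2: cgaggagggggcGGTTGCtcggcaaccaga
Tekt3: cctgccctaggcGGTTGCtatggacgctca
Tekt4: agcaaggttcctGGTTGCctaaggaacatt
Tekt5: cggttgtgatgtGGTTGCtaggaacttagc

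A match is a description of the letters and no factor binding was measured.

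Other proteins that line the inside of doublet microtubules gave a group to set beside the tektins. Of 39 genes listed for this role, 24 were matched to the annotation, and all 24 were tested. Averaged over the cell types, 11 of 24 were called higher in polysomes and none lower, beside 30.6% of tested genes called. The median log2 fold change of the list was 1.15, against 0.76 for all tested genes, and after median-ratio scaling it was 0.26, against 0.12, with 0 of 24 called by limma, 1 at an unadjusted p under 0.05, and 1.78% of genes called. Among the called genes, Enkur, which is needed for sperm motility, stood 1.72 higher in polysomes on the log2 scale (SE 0.47, adjusted p = 0.0137), and Ribc1 stood 1.78 higher (SE 0.51, adjusted p = 0.0163). Mns1, which is required for normal sperm tails, stood 1.06 higher (SE 0.32, adjusted p = 0.0221), and Cfap45, listed as Ccdc19, 1.43 higher (SE 0.47, adjusted p = 0.0313).

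Within single cell types, 2 of 24 were called higher in pachytene polysomes than in pachytene RNPs, Gtl3 and Nme7, which were named after their values were seen, beside 6.34% of tested genes. Few were called between stages. Elongating minus pachytene in polysomes, 1 of 24 was called, Efhc2, a gene named after its values were seen, beside 5.91% of tested genes, and the list median was 0.99, against -0.24 for all tested genes. In RNPs 0 of 24 were called by limma, with 4 at an unadjusted p under 0.05 and 0.689% of tested genes called, and the list median was 1.20, against 0. The most abundant member, Spaca9 (1700026L06Rik), was at 639 ± 209 FPKM in elongating polysomes and 59.8 ± 60.1 FPKM in pachytene polysomes (SD, n = 3 each), and did not pass the test (log2 fold change 3.80, SE 1.40, adjusted p = 0.111).

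Over the 18 libraries the tektins varied together, as a description without a test. Among 7088 genes with a mean of at least 10 FPKM, Pearson correlations between tektins were 0.84 to 0.98, the highest being that of Tekt3 with Tekt4. Genes other than tektins correlated more closely with each of them. By rank among these genes, the nearest tektin to another was Tekt3 for Tekt4, at rank 10. The furthest was Tekt2 for Tekt5, at rank 760. The genes most like each tektin were 1700018F24Rik, Slc22a16 and Sccpdh for Tekt1 (0.97 to 0.98), Slc2a5, Ccdc87 and Acr for Tekt2 (0.95 to 0.98), Glipr1l1, Arc and 1700003H04Rik for Tekt3 (0.99 each), 4930579J09Rik, Hipk4 and Glipr1l1 for Tekt4 (0.99 each), and Ropn1, 1700061J05Rik and Pdzk1ip1 for Tekt5 (0.98 to 0.99). These points share the fraction, the cell type, the deposited scale and the round libraries numbered 2.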

How the data were processed

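Stranded total RNA libraries were sequenced from the polysome and RNP fractions of 3 germ cell types, 3 libraries per group. The authors trimmed and aligned the reads with TopHat2, and assembled each library alone with Cufflinks on mm9; exact versions are not given in the sources used here. The deposited values are FPKM per assembled transcript, not scaled between libraries, and hold no counts. A gene's value was the sum of FPKM over spliced transcripts that shared a junction and strand with a GENCODE vM1 gene. Group comparisons used limma 3.58.1 in R 4.3.3 on log2(FPKM + 1), with trend, 1 model of 6 groups and 18 libraries and 13 contrasts. Genes at 1 FPKM or more in at least 3 libraries were tested, and p-values were Benjamini-Hochberg adjusted over all 14664, with calls at an adjusted p under 0.05. A fold change on this scale understates that of low genes. Sequences were read from mm9 and from RefSeq promoter tables with Python 3.11.15. The scripts were tested on simulated data. Alternatives were other scalings, gene values, filters, pseudocounts, the replicate block and leaving libraries out. Same-numbered libraries deviated together, with every correlation over 0.1, for round polysomes with round RNPs and for round with pachytene RNPs. The members and lists were chosen with earlier results of these data known. Genes named outside the tektins were 10 transcription factors, the 10 microtubule inner proteins of highest mean FPKM, and the 3 genes most correlated with each tektin. Efhc2, Gtl3 and Nme7 fall outside this rule. One Tekt5 sequence is not reported here.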

Additional observations from a re-analysis of the deposited data

How the results depend on the processing

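With median-ratio scaling, with or without both round libraries numbered 2, with quantile normalization, with rescaling that left out mitochondrial and the 10 highest genes, or with the replicate block and median-ratio scaling together, 0 tektins were called between polysomes and RNPs averaged over cell types, against 4 on the deposited scale. With annotated intron chains only, 0 were called too, with log2 fold changes of 1.38, 0.75, 1.70 and 1.35 for Tekt1 to Tekt4 (limma adjusted p 0.0506 to 0.696), of which that of Tekt2 differed from the deposited 1.78. This setting put Tekt2 at 0 in replicate 1 of pachytene polysomes, pachytene RNPs and elongating polysomes. Round polysome replicate 3 and round RNP replicate 2 were also put at 0. Tekt1, Tekt3 and Tekt4 kept their full FPKM in every library, so their fold changes stayed the same. Why their adjusted p rose was not tested. Leaving out 1 library at a time gave 3 to 5 calls there. In pachytene cells, where 0 were called, the block gave 2 (Tekt1 and Tekt3), leaving out both round libraries numbered 2 gave 5, fragments in place of FPKM (chosen after seeing the data) gave 1 (Tekt2), and leaving out 1 library gave 0 to 1. In elongating cells 4 were called with only the libraries compared. For elongating minus pachytene, 1 was called in polysomes with only the libraries compared (Tekt5), and 2 in each fraction with median-ratio scaling without both round libraries numbered 2 (also chosen after seeing the data).

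The replicate block added Tekt5 to the calls averaged over cell types, giving 5, and beside this and the pachytene calls it changed no call. In the 2 comparisons whose libraries paired by number it gave 0 calls, as without the block. Of 2075 single-gene results under alternatives, 2015 kept their side of the threshold, 39 lost a call and 21 gained one, and 85, none of them called, had another sign. With 3 libraries per group and no counts, small differences could not be seen.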

Other observations

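Transcription factors known to act on ciliary or spermatid genes were read in the same fits, and all 10 listed were tested. Mybl1, which drives pachytene transcription, stood higher in polysomes than in RNPs when averaged over cell types (log2 fold change 2.82, limma adjusted p = 4.64e-05), in round spermatids (3.93, adjusted p = 0.00187) and in elongating spermatids (2.75, adjusted p = 0.018), and in pachytene spermatocytes it was not called (1.78, adjusted p = 0.0534). Crem, an activator of haploid genes, stood 1.57 higher averaged over cell types (adjusted p = 0.00807), and Rfx4 1.003 higher (adjusted p = 0.0379). After median-ratio scaling Mybl1 was still called averaged over cell types (1.92, adjusted p = 0.00208) and in round spermatids (3.20, adjusted p = 0.00937) but not in elongating spermatids (1.92, adjusted p = 0.133), and neither Crem (0.64, adjusted p = 0.415) nor Rfx4 (0.13, adjusted p = 0.872) was called. On the deposited scale, of all tested genes, 30.6% were called in the comparison averaged over cell types. Foxj1, a regulator of motile cilia, was at 79.0 ± 2.58 FPKM in elongating polysomes and 28.1 ± 15.8 FPKM in pachytene polysomes (SD, n = 3 each), and Rfx2, needed for spermatid development, at 104 ± 35.6 FPKM in elongating polysomes and 67.0 ± 16.0 FPKM in pachytene polysomes. Neither passed the limma test of elongating minus pachytene polysomes (adjusted p = 0.268 for Foxj1 and 0.685 for Rfx2), where 5.91% of tested genes were called. The list did not move as 1 group, and none of the 10 was called there. The log2 fold changes were 2.03 for Rfx3, 1.87 for Rfx1, 1.59 for Foxj1, 0.68 for Crem and 0.58 for Rfx2. They were 0.15 for Tbpl1, 0.12 for Sox30, 0.04 for Mybl1, -0.06 for Rfx4 and -0.09 for Taf7l.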
